A study of Mus musculus with 18 samples.

Results

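The TGF-β and BMP pathway genes described here are 45 listed mouse genes: 10 ligands, 12 receptors and co-receptors, 8 SMADs, 3 corepressors, 8 extracellular binding proteins, antagonists and proteases, and 4 Id genes. They were chosen by name for their place in the pathway, with earlier results of these data known. All 45 were found among the 50686 genes of the count files. mRNA was measured by RNA-seq in E0771 cells, a mouse mammary tumor line described as triple negative, which here carried a CMV-firefly luciferase construct. On top of it, each line received 1 hairpin in the retroviral LENC vector, directed against Renilla luciferase (cntrl) or against Cdk8 (shCdk8-1 or shCdk8-2). The lines were then treated with DMSO or 1 µM Senexin B (SnxB), an inhibitor of the kinases CDK8 and CDK19, for 48 h, in 6 groups: cntrl in DMSO, cntrl in SnxB, shCdk8-1 in DMSO, shCdk8-1 in SnxB, shCdk8-2 in DMSO and shCdk8-2 in SnxB. Each group held 3 libraries. Each hairpin was studied in 1 transduced line, so an effect of the hairpin and a difference between lines cannot be told apart, and in bulk RNA fewer cells of a type and less RNA per cell cannot be told apart either.

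TGF-β is secreted in a latent form that is held by latent TGF-β binding proteins until it is released. Released ligands of the family bring together type II and type I receptor kinases, the type I receptors phosphorylate Smad2 and Smad3 (TGF-β and activin) or Smad1, Smad5 and Smad9 (BMP), and these enter the nucleus with Smad4. Smad6, Smad7, Ski, Skil and Tgif1 restrain the signal. CDK8 is one of the kinases known to phosphorylate the linker of receptor-activated SMADs in the nucleus, and in mammary tumor cells TGF-β is known both for growth arrest and for invasion.

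Library totals ran from 16452260 to 22664693 counts (median 19029320). Levels are given as CPM, counts per 1000000 counts of a library, and 3 counts, the level below which a gene cannot be told from 0, amounted to 0.131 to 0.185 CPM. Cdk8 mRNA was 58.6, 54.8 and 55.1 CPM in cntrl libraries in DMSO, 22.2, 18.7 and 23.4 CPM with shCdk8-1 and 38.5, 38.9 and 39.2 CPM with shCdk8-2, a log2 fold change of -1.38 and -0.53, so the target was lower under both labels. The keratins Krt18, Krt19, Krt5 and Krt14 were at or near 0 in all groups, and Krt8, a keratin of luminal epithelium, had 1 count in each cntrl library in DMSO but 7.19 to 7.81 CPM with shCdk8-1 and 12.1 to 13.6 CPM with shCdk8-2. The summed level of the 5 luminal markers listed (Krt8, Krt18, Krt19, Epcam and Cdh1) was 0.163 to 0.441 CPM in cntrl libraries in DMSO, 8.08 to 8.95 CPM with shCdk8-1 and 12.4 to 14.3 CPM with shCdk8-2. Nearly all of this rise was Krt8. Cdh1 was 0.141 CPM on average in cntrl cells in DMSO, 0.659 CPM with shCdk8-1 and 0.260 CPM with shCdk8-2. The part of these markers in the results on the shCdk8 lines was not tested. Esr1, which encodes the estrogen receptor that triple-negative tumors lack, was 23.1 CPM on average in cntrl cells and 1.25 and 0.951 CPM in the shCdk8-1 and shCdk8-2 lines. Pgr was at 0 in all libraries, and Erbb2, the HER2 receptor, was 55.4 CPM on average in cntrl cells in DMSO. In every group but cntrl in DMSO, 1 library stood apart by the chi-square per gene between pairs of libraries. This value is near 1 where only counting noise separates a pair. Replicate 2 of shCdk8-1 in DMSO gave 12 and 17.5 against the others, which gave 4.03 with each other, and replicate 3 of shCdk8-2 in DMSO gave 9.95 and 10.9 beside 2.45. Replicate 1 of cntrl in SnxB gave 10.4 and 8.21 beside 2.89, and replicate 2 of shCdk8-1 in SnxB gave 13.2 and 8.75 beside 4.31. Replicate 1 of shCdk8-2 in SnxB gave 6 and 6.37 beside 1.62. In the headers of the count files, the shCdk8-2 libraries labelled replicates 2 and 3 both carry replicate number 3, in DMSO and in SnxB, so whether these pairs are separate samples cannot be told. Their chi-square per gene was 10.9 in DMSO and 1.62 in SnxB, the lowest of all pairs, and no 2 libraries held identical counts. They were counted as separate libraries, as labelled, and counts without each are given beside the results. The labels do not say whether replicates are separate cultures, so the p-values measure only the spread between these libraries.

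Of the 45 genes, 32 had enough counts to be tested. Bmp2, Bmp4, Grem1, Id4 and Nog had no count in any library, and Bmpr1b, Inhbb and Bmp6 reached at most 2 counts. Inhba peaked at 4 counts, Fst at 6, Smad6 at 11, Ltbp2 at 12 and Bmp7 at 16 in any library. At this depth the cells held little or no mRNA for the BMP ligands listed, for the activin subunits or for the secreted antagonists noggin, gremlin and follistatin.

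Levels of different genes were compared in cntrl cells in DMSO as CPM per kb of exon, which corrects for gene length. The highest was Eng, the co-receptor endoglin, at 59.2 CPM per kb, followed by Bmp1, a protease that matures collagens and frees TGF-β from its binding proteins, at 48.5 CPM per kb. Smad4, the partner of all receptor-activated SMADs, came next at 36.9 CPM per kb. Among ligands Tgfb1 led with 18.7 CPM per kb, above Tgfb3 at 6.94, Gdf15 at 5.95 and Tgfb2 at 2.51 CPM per kb. The libraries of Tgfb3 and Gdf15 overlapped. Acvrl1, the type I receptor ALK1, at 0.356 CPM per kb and Smad9 at 0.140 CPM per kb were the lowest of the genes tested.

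**Figure D1:**
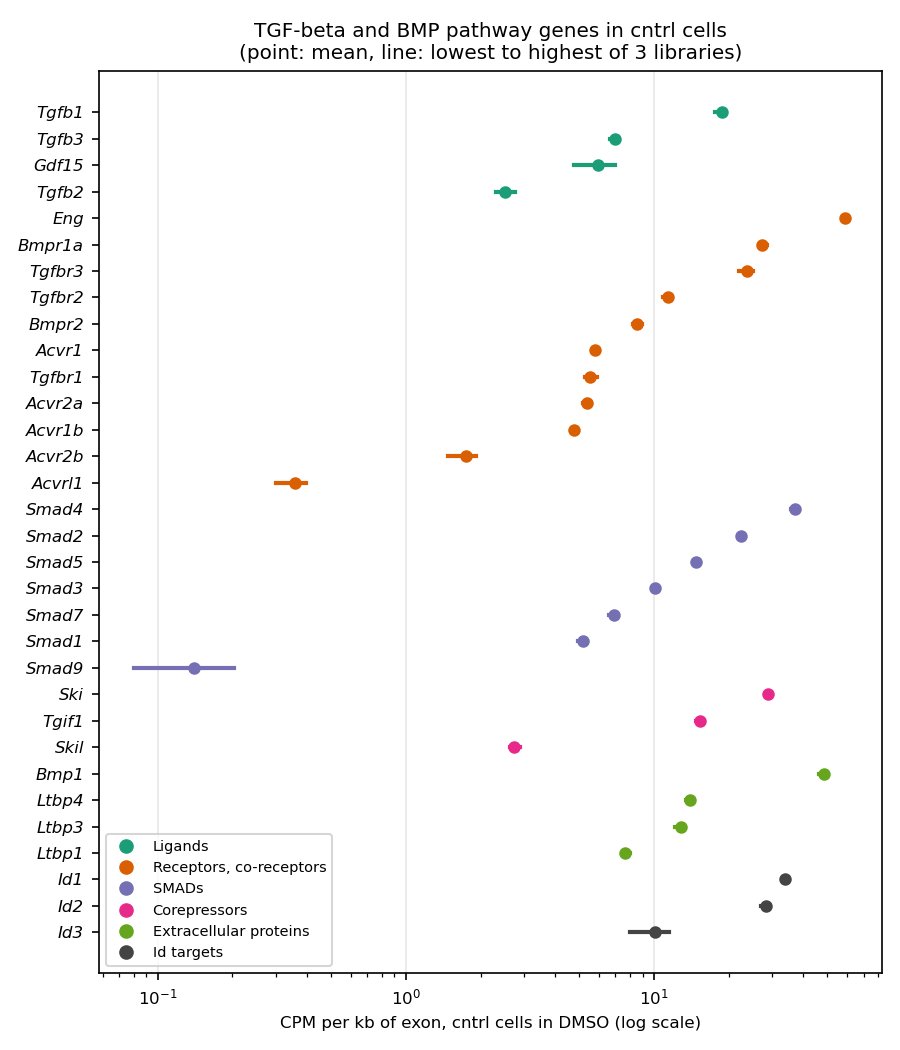
Level of the 32 tested genes in cntrl cells in DMSO, in CPM per kb of exon on a log axis, grouped by role and ordered within each role. Points are means of 3 libraries and lines run from the lowest to the highest library. Eng sits at 59.2 CPM per kb, and Acvrl1 and Smad9 lie below 1 CPM per kb.

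With each Cdk8 shRNA, most of the tested genes changed against cntrl in DMSO, most of them by less than 2-fold. A gene was called where the Benjamini-Hochberg adjusted p, over the 12772 genes tested by quasi-likelihood in edgeR, was under 0.05. With shCdk8-1, 6 of the 32 genes rose and 15 fell, or 65.6%. Of all genes tested, 59.6% passed, 30.1% upward and 29.5% downward. Without replicate 2 of shCdk8-1 in DMSO, 20 of the 32 passed. With shCdk8-2, 7 rose and 14 fell, again 65.6%, beside 57.1% of all genes, 29% upward and 28.1% downward. Without replicate 2 or 3 of shCdk8-2 in DMSO, 22 and 20 passed. The share of the pathway genes that passed was thus close to that of all genes. The median log2 fold change of the 32 genes was -0.17 with shCdk8-1 and -0.04 with shCdk8-2, beside medians of all genes of 0.01 in both comparisons. A fold change above 2 was reached by 4 of the 32 genes with each shRNA, or 12.5%, beside 12.5% of all genes with shCdk8-1 and 11% with shCdk8-2. With each library left out, 3 to 6 genes passed 2-fold with shCdk8-1, 3 without replicate 1 of cntrl in DMSO or replicate 2 of shCdk8-1 in DMSO and 6 without replicate 2 of cntrl in DMSO. With shCdk8-2 it was 3 or 4, and 3 without replicate 3 of shCdk8-2 in DMSO.

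The 2 comparisons share the cntrl libraries, so their overlap is not independent. In both, 14 of the 32 genes fell and 5 rose, beside 24.2% and 24.1% of all genes. None passed in opposite directions, beside 0.454% of all genes, 9 passed in neither, and 2 passed with 1 shRNA alone in each case. Tgfbr2 and Acvrl1, 2 of the 32 genes, fell by more than 2-fold with both shRNAs, beside 5.25% of all genes. None of the 32 rose by more than 2-fold with both, beside 4.28% of all genes. With all libraries, Ltbp1 and Tgfb3 also passed 2-fold with shCdk8-1, and Gdf15 and Smad9 with shCdk8-2. Without replicate 2 of cntrl in DMSO, Gdf15 and Smad9 passed 2-fold with shCdk8-1 too, at log2 fold changes of -1.09 and 1.17, and neither differed between the shCdk8 lines at an adjusted p under 0.05.

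**Figure D2:**
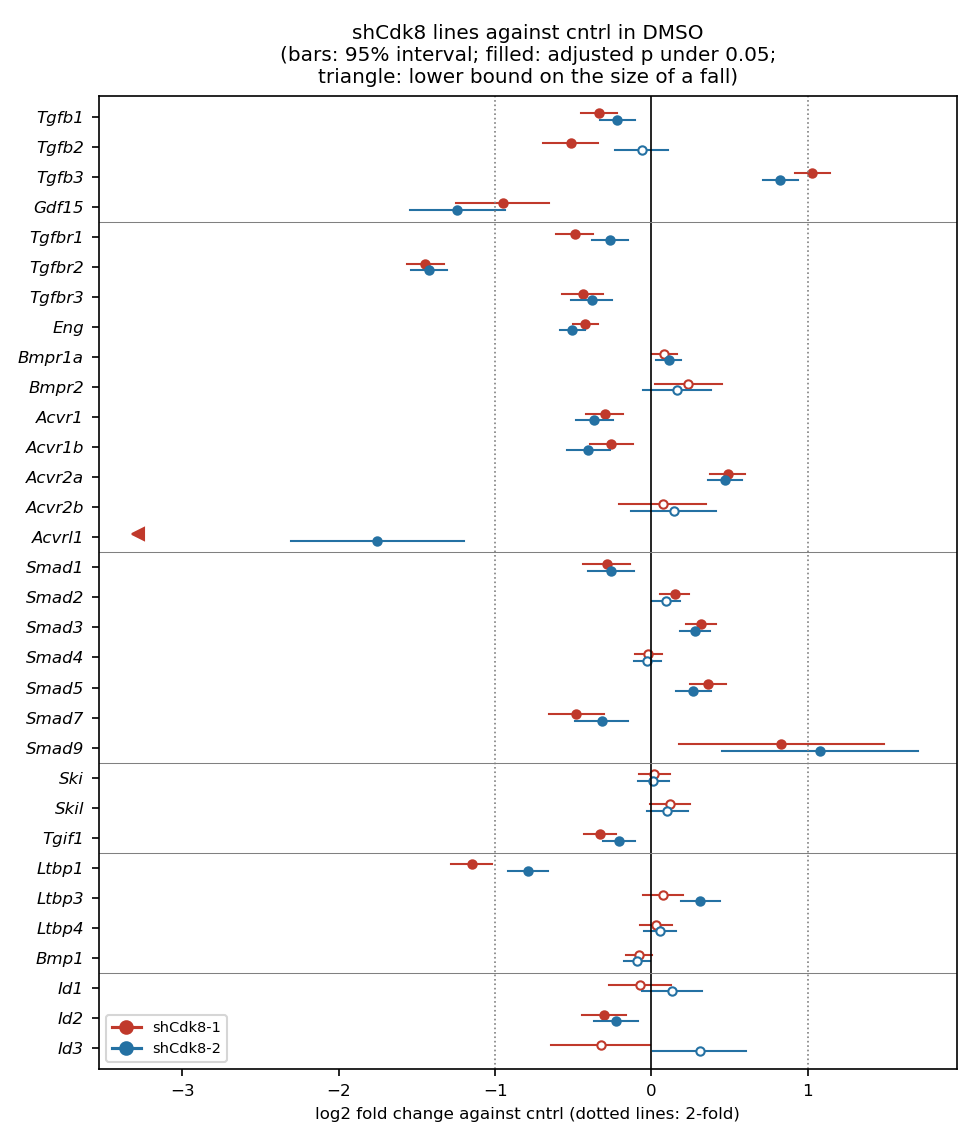
Log2 fold change of the 32 tested genes in shCdk8-1 (red) and shCdk8-2 (blue) cells against cntrl cells in DMSO, grouped by role. Points are estimates with 95% intervals, filled where the adjusted p is under 0.05, the dotted lines mark 2-fold, and the triangle is the lower bound on the fall of Acvrl1 with shCdk8-1. Tgfbr2 lies at -1.45 and -1.42, and Tgfb3 at 1.03 and 0.82.

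The receptors held the largest falls. Of 11 tested receptors and co-receptors, 7 fell with each shRNA, and 1 rose with shCdk8-1 and 2 with shCdk8-2, beside 29.5% and 28.1% of all genes that fell and 30.1% and 29% that rose. Tgfbr2 (ENSMUSG00000032440.13, minus strand of chromosome 9 of GRCm38, 116084293 to 116175360) encodes the type II receptor that binds TGF-β ligands. It was 95.1, 89.1 and 95.3 CPM in replicates 1, 2 and 3 of cntrl in DMSO, 34.1, 34.3 and 34.2 CPM with shCdk8-1, and 33.5, 35.9 and 34.8 CPM with shCdk8-2. The lowest cntrl library lay above the highest shCdk8 library, and both shCdk8 lines lay in the same narrow band. Tgfbr2 fell by 1.45 on the log2 scale with shCdk8-1 (SE 0.0568, adjusted p = 1.6e-14) and by 1.42 with shCdk8-2 (SE 0.0565, adjusted p = 2.99e-14). Leaving out any 1 library kept the log2 fold change between -1.48 and -1.43 and between -1.46 and -1.40.

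Acvrl1 (ENSMUSG00000000530.16, plus strand of chromosome 15, 101128522 to 101145336) encodes a type I receptor for BMP9, BMP10 and TGF-β that is best known from endothelium. Its counts were 26, 31 and 26 in the cntrl libraries in DMSO, 2 in each shCdk8-1 library, and 14, 8 and 5 in the shCdk8-2 libraries. These are 1.60, 1.68 and 1.27 CPM in cntrl cells against 0.609, 0.409 and 0.274 CPM with shCdk8-2. The groups did not overlap, at a low level throughout. Against the floor of 3 counts, Acvrl1 was at least 9.76-fold lower with shCdk8-1 than in cntrl cells (adjusted p = 1.93e-08). With shCdk8-2 the log2 fold change was -1.75 (SE 0.265, adjusted p = 1.04e-05). Endothelial markers moved in both directions, and of 3 listed, 2 were tested. Pecam1 rose from 0.286 CPM in cntrl cells to 14.3 and 5.85 CPM with shCdk8-1 and shCdk8-2, and Cdh5 fell from 4.34 to 0.206 and 0.595 CPM. Kdr, not tested, had 10 to 12 counts in cntrl libraries in DMSO, 0 to 2 with shCdk8-1 and 1 to 4 with shCdk8-2. The summed level of the 3 markers was 4.95 to 5.61 CPM in cntrl libraries, 13.6 to 15.2 CPM with shCdk8-1 and 6.41 to 6.83 CPM with shCdk8-2. Their part in the Acvrl1 and Eng values was not tested.

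The other receptors changed by less than 2-fold. Tgfbr1, the type I partner of Tgfbr2, was 34.3 to 38.7 CPM in cntrl libraries, 24.5 to 27.4 CPM with shCdk8-1 and 29.7 to 30.5 CPM with shCdk8-2, without overlap with cntrl. Its log2 fold change was -0.49 (adjusted p = 2.68e-07) with shCdk8-1 and -0.26 (adjusted p = 0.000427) with shCdk8-2. The co-receptors Eng and Tgfbr3 (betaglycan, which presents TGF-β ligands to the receptor) fell as well, Eng by 0.42 and 0.51 and Tgfbr3 by 0.44 and 0.38 on the log2 scale with shCdk8-1 and shCdk8-2. Acvr1 and Acvr1b, type I receptors for BMPs and for activins, fell by 0.30 and 0.26 with shCdk8-1 and by 0.37 and 0.40 with shCdk8-2 on the log2 scale. Acvr2a, a type II receptor shared by activins and BMPs, went the other way, from 29.3 to 31.7 CPM in cntrl libraries to 41.5 to 44.7 CPM with shCdk8-1 and 41.0 to 43.4 CPM with shCdk8-2. Its log2 fold change was 0.49 and 0.47, and no shCdk8 library overlapped with cntrl. Bmpr1a, a BMP type I receptor, rose by 0.11 on the log2 scale with shCdk8-2 (adjusted p = 0.0164), with overlapping libraries, and the call was lost without replicate 1 or 2 of cntrl in DMSO (adjusted p = 0.0868 and 0.12), without replicate 1 or 3 of shCdk8-2 in DMSO (adjusted p = 0.104 and 0.0513) and with no filter on low counts (adjusted p = 0.0681). Acvr2b and Bmpr2, type II receptors, did not pass with either shRNA. Their log2 fold changes were 0.07 and 0.24 with shCdk8-1 and 0.14 and 0.16 with shCdk8-2.

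**Figure D3:**
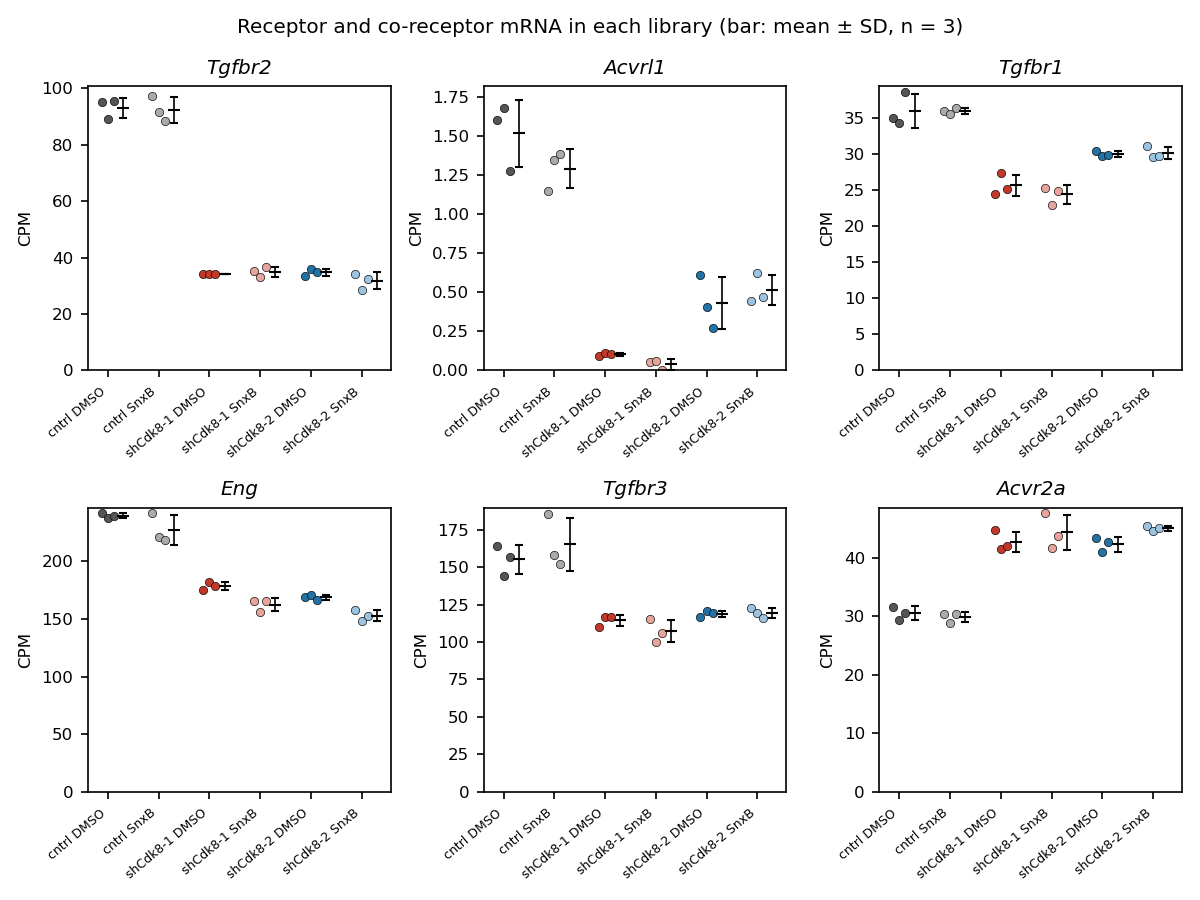
CPM of 6 receptors and co-receptors in each of the 18 libraries, by line and treatment, each panel on its own axis from 0. Points are libraries, and bars give the mean ± SD (n = 3). Tgfbr2 lies at 89.1 to 95.3 CPM in cntrl cells in DMSO and at 33.5 to 35.9 CPM in both shCdk8 lines in DMSO, while Acvr2a is higher in the shCdk8 lines.

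The sequences before a RefSeq start of 6 receptor genes are shown to set those that fell beside the 1 that rose. They are the receptors that changed with both shRNAs and were in the promoter table, 5 that fell and Acvr2a that rose. Each line gives the 250 bases upstream of the start from RefSeq on GRCm38.p6, read 5′ to 3′ on the gene's strand: chr9:116175364-116175613 (minus), chr4:47352972-47353221 (plus), chr2:32646345-32646594 (plus), chr2:58566829-58567078 (minus), chr15:101173822-101174071 (plus) and chr2:48813859-48814108 (plus). Capitals mark GGCGCC and CAGAC (or its reverse complement GTCTG), short motifs known to be bound by SMADs, searched on both strands.
Tgfbr2: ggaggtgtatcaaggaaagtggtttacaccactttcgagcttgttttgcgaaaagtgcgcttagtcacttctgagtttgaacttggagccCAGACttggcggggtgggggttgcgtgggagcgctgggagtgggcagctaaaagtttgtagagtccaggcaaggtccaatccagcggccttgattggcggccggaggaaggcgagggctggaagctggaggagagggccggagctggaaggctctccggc
Tgfbr1: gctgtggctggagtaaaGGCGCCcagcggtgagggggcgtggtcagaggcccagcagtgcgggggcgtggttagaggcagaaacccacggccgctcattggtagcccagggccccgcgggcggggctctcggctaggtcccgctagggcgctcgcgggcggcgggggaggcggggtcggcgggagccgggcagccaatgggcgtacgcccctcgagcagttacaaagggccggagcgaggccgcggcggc
Eng: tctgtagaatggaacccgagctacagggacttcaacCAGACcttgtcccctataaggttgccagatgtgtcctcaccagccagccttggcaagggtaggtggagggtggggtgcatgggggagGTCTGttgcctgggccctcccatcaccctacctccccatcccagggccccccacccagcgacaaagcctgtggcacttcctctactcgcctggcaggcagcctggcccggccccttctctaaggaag
Acvr1: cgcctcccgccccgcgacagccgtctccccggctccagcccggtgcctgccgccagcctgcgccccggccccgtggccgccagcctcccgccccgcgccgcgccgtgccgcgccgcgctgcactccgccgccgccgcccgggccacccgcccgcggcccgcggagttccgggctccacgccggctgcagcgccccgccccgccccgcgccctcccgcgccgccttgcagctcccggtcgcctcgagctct
Acvr1b: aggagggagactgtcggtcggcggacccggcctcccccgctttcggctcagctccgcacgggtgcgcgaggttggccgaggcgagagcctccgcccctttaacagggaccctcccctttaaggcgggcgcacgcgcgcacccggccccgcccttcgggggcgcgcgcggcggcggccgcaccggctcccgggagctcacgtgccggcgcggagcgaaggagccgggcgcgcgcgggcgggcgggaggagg
Acvr2a: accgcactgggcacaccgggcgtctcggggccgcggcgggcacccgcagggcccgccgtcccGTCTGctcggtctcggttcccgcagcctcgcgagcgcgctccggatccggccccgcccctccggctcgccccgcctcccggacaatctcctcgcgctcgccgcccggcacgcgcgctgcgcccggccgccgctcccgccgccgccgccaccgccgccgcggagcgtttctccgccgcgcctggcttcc
Tgfbr2 holds 1 CAGAC, Tgfbr1 1 GGCGCC, Eng 2 CAGAC and Acvr2a 1 CAGAC, and Acvr1 and Acvr1b hold neither. The Acvr1 window lies inside the gene as annotated for the counts (58388644 to 58567157), so it does not describe the bases before that annotated start. Tgfbr1 has a second window, chr4:47385966-47386215, with 1 CAGAC and no GGCGCC, and the first is shown. The promoter table held 32 of the 45 genes, of which 16 had CAGAC and 10 had GGCGCC in such a window, and some genes had more than 1 window. Of all 32851 windows of this length, 42.2% held CAGAC and 9.59% GGCGCC. These are shares of windows and the former are counts of genes, so they are not like measures. The 6 windows shown were 58.4% (Tgfbr2) to 85.6% (Acvr1) G and C, beside a median of 52.4% over all windows. These matches describe letters and not binding.

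Among the ligands, Tgfb1 and Gdf15 fell and Tgfb3 rose with both shRNAs. Tgfb1, the ligand with the highest level, was 89.3 to 97.1 CPM in cntrl libraries in DMSO, 71.1 to 77.3 CPM with shCdk8-1 and 81.0 to 81.5 CPM with shCdk8-2. Its log2 fold change was -0.34 and -0.22. Tgfb3 (ENSMUSG00000021253.6), a ligand known from wound healing and palate formation, was 22.5 to 24.3 CPM in cntrl libraries, 46.6 to 50.8 CPM with shCdk8-1 and 40.1 to 43.3 CPM with shCdk8-2. No library of either shCdk8 line overlapped with cntrl, and the log2 fold change was 1.03 (SE 0.0528, adjusted p = 1.1e-12) and 0.82 (SE 0.0532, adjusted p = 5.84e-11). Gdf15, a distant family member induced by cell stress, was 8.78 to 12.9 CPM in cntrl libraries, 4.84 to 6.82 CPM with shCdk8-1 and 4.31 to 5.31 CPM with shCdk8-2. Its log2 fold change was -0.95 and -1.24. Tgfb2 fell with shCdk8-1 alone, with a log2 fold change of -0.52 (adjusted p = 2.23e-05) against -0.06 (adjusted p = 0.53) with shCdk8-2. The lines differed in a direct test of Tgfb2 (log2 fold change 0.45 of shCdk8-2 against shCdk8-1, adjusted p = 0.000513).

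The SMADs moved in both directions. Of 7 tested, 4 rose and 2 fell with shCdk8-1 and 3 rose and 2 fell with shCdk8-2, beside 30.1% and 29% of all genes that rose and 29.5% and 28.1% that fell. With both shRNAs, Smad3, Smad5 and Smad9 rose and Smad1 and Smad7 fell. Smad3, which carries TGF-β and activin signals, rose by 0.32 and 0.28 on the log2 scale, and Smad5, which carries BMP signals, by 0.36 and 0.27. Smad1, another BMP SMAD, fell by 0.29 and 0.26, and Smad7, an inhibitor that is itself induced by TGF-β, by 0.48 and 0.32 on the log2 scale. Smad9 was 0.431 to 1.08 CPM in cntrl libraries, 1.27 to 1.48 CPM with shCdk8-1 and 1.38 to 1.86 CPM with shCdk8-2, with log2 fold changes of 0.83 (adjusted p = 0.0277) and 1.08 (adjusted p = 0.00448). With shCdk8-1 the Smad9 call was lost without replicate 1 or 3 of cntrl in DMSO (adjusted p = 0.131 and 0.0724) and without replicate 2 or 3 of shCdk8-1 in DMSO (adjusted p = 0.069 and 0.0523). Smad2, which acts beside Smad3, rose with shCdk8-1 (log2 fold change 0.15, adjusted p = 0.00569) and had a log2 fold change of 0.10 with shCdk8-2 (adjusted p = 0.0665). Smad4 had log2 fold changes of -0.02 and -0.03, with 95% intervals from -0.11 to 0.07 and from -0.11 to 0.06.

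Of the corepressors, Tgif1 fell by 0.33 and 0.21 on the log2 scale with shCdk8-1 and shCdk8-2. Ski and Skil, which hold SMAD complexes inactive on DNA, did not pass, with log2 fold changes of 0.02 and 0.12 with shCdk8-1 and of 0.01 and 0.10 with shCdk8-2.

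Outside the cell, the latent TGF-β binding proteins differed among themselves. Ltbp1 (ENSMUSG00000001870.15), which ties latent TGF-β to the matrix, was 77.7 to 83.7 CPM in cntrl libraries in DMSO, 31.3 to 40.1 CPM with shCdk8-1 and 45.4 to 47.1 CPM with shCdk8-2. All shCdk8 libraries were below all cntrl libraries, and the log2 fold change was -1.15 (SE 0.0628, adjusted p = 3.11e-12) and -0.79 (SE 0.0611, adjusted p = 9.2e-10). Ltbp3 rose with shCdk8-2 (log2 fold change 0.31, adjusted p = 0.00017) and had a log2 fold change of 0.08 with shCdk8-1 (adjusted p = 0.305). Ltbp4 and Bmp1 did not pass with either shRNA in DMSO, with log2 fold changes of 0.03 and -0.08 with shCdk8-1 and of 0.06 and -0.09 with shCdk8-2.

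The Id genes encode inhibitors of bHLH transcription factors and are the best known direct targets of BMP signaling. Id2 fell by 0.30 and 0.22 on the log2 scale with shCdk8-1 and shCdk8-2. Id1 had log2 fold changes of -0.07 and 0.13, and neither passed. Id3 was 14.4 to 20.7 CPM in cntrl libraries, 13.5 to 15.5 CPM with shCdk8-1 and 20.1 to 25.0 CPM with shCdk8-2. Each line overlapped with cntrl, but the lines did not overlap with each other, and Id3 was higher in shCdk8-2 than in shCdk8-1 cells by 0.63 on the log2 scale (adjusted p = 0.00377).

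**Figure D4:**
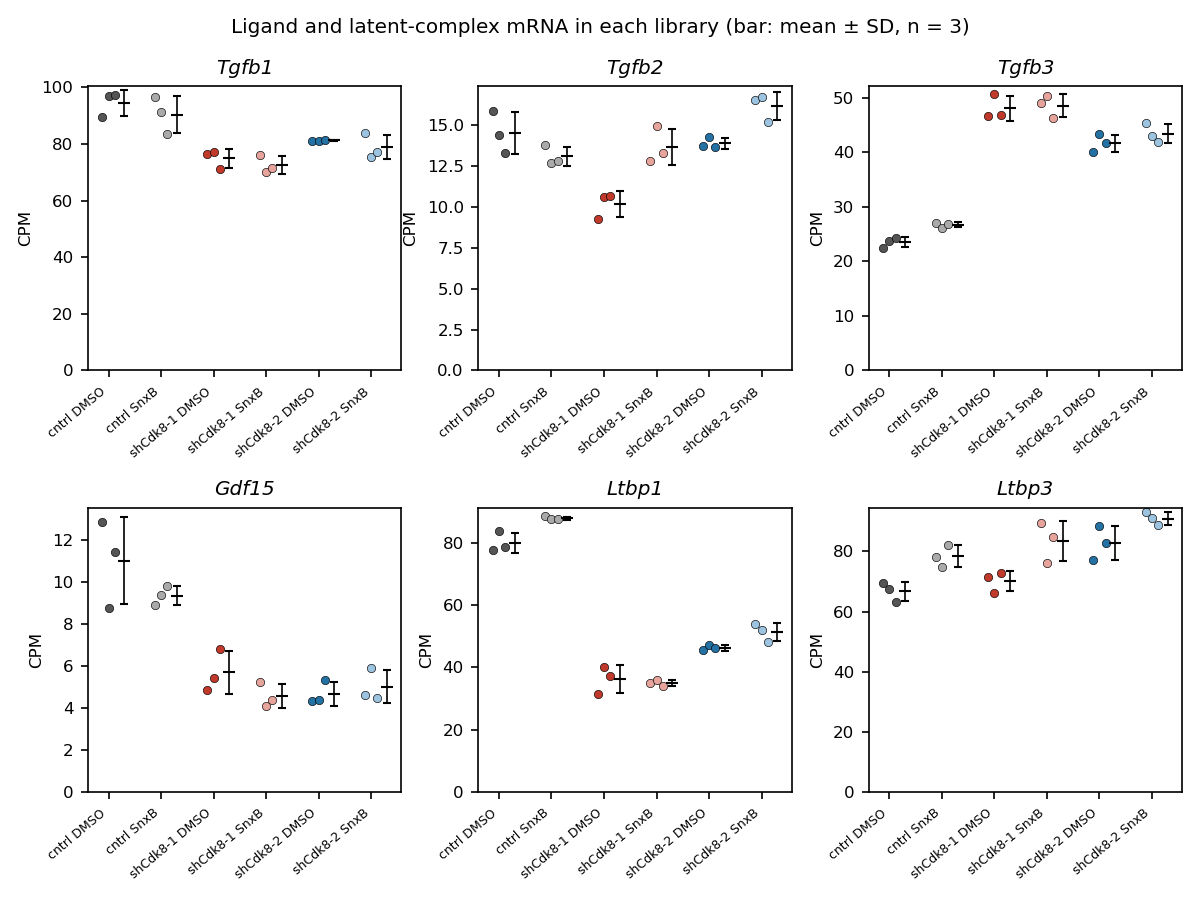
CPM of 4 ligands and of the latent TGF-β binding proteins Ltbp1 and Ltbp3 in each of the 18 libraries, each panel on its own axis from 0. Points are libraries, and bars give the mean ± SD (n = 3). Tgfb3 lies at 22.5 to 24.3 CPM in cntrl cells in DMSO and above 40 CPM in every shCdk8 library, and Ltbp1 is below its cntrl level in every shCdk8 library.

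Between the shCdk8 lines in DMSO, 6 of the 32 genes were higher and 1 was lower in shCdk8-2 than in shCdk8-1 cells, 21.9% beside 21.1% of all genes tested, 11.2% higher and 9.91% lower. Acvrl1 alone passed 2-fold, beside 2.17% of all genes. Besides Tgfb2 and Id3, Tgfbr1 (log2 fold change 0.23), Ltbp1 (0.36), Ltbp3 (0.24) and Acvrl1 were higher with shCdk8-2, and Tgfb3 was lower (log2 fold change -0.21). Acvrl1 was at least 2.77-fold higher (adjusted p = 0.00375), and without replicate 1 of shCdk8-2 its adjusted p was 0.0639. Without replicate 2 of shCdk8-2, the adjusted p of Ltbp3 was 0.0614. For Tgfbr2 the log2 difference was 0.02, with a 95% interval from -0.10 to 0.15.

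The same comparisons in SnxB rest on other libraries. In SnxB, 6 of the 32 genes rose and 16 fell with shCdk8-1, or 68.8% beside 60.6% of all genes (30.5% upward and 30.1% downward). With shCdk8-2 in SnxB, 9 rose and 15 fell, or 75% beside 56.7% of all genes (28.1% upward and 28.6% downward). Without replicate 1 of cntrl in SnxB, 23 passed with shCdk8-1 and 24 with shCdk8-2. Without replicate 2 of shCdk8-1 in SnxB 24 passed with that shRNA, and without replicate 2 or 3 of shCdk8-2 in SnxB 23 and 25 passed. With any 1 library of the comparison left out, 23 to 25 passed with shCdk8-2. A fold change above 2 was reached by 5 genes with shCdk8-1 and 3 with shCdk8-2, beside 12.8% and 10.8% of all genes. Of the 21 genes that passed in DMSO with shCdk8-1, 19 passed in the same direction in SnxB, all but Tgfb2 and Smad2. Of the 21 that passed with shCdk8-2, all 21 did. Tgfbr2 was 97.4, 91.5 and 88.3 CPM in cntrl cells in SnxB, 35.3, 33.1 and 36.5 CPM with shCdk8-1 and 34.3, 28.5 and 32.5 CPM with shCdk8-2. Its log2 fold change was -1.40 (adjusted p = 2.61e-14) and -1.54 (adjusted p = 1.19e-14). Acvrl1 was 1.15, 1.35 and 1.38 CPM in cntrl cells in SnxB, at most 1 count in the shCdk8-1 libraries and 0.444, 0.626 and 0.473 CPM with shCdk8-2. It was at least 7.78-fold lower with shCdk8-1 (adjusted p = 1.52e-08) and had a log2 fold change of -1.33 with shCdk8-2 (adjusted p = 0.000264). Tgfb3 rose by 0.86 and 0.70 on the log2 scale, and Ltbp1 fell by 1.33 and 0.77. Of the genes that did not pass in DMSO, Skil, Bmp1 and Id3 passed in SnxB with shCdk8-1 and Tgfb2, Bmp1 and Id3 with shCdk8-2. Bmp1 had log2 fold changes of -0.17 and -0.16. Skil rose by 0.20 on the log2 scale with shCdk8-1 (adjusted p = 0.00707), and Tgfb2 by 0.31 with shCdk8-2 (adjusted p = 0.00267). Id3 passed in opposite directions, with a log2 fold change of -0.41 with shCdk8-1 (adjusted p = 0.0206) and of 0.33 with shCdk8-2 (adjusted p = 0.0461), and its libraries overlapped with cntrl in both. Id3 was 16.4, 26.3 and 21.9 CPM in cntrl cells in SnxB, 14.9, 17.7 and 16.3 CPM with shCdk8-1 and 24.7, 30.8 and 26.4 CPM with shCdk8-2.

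SnxB itself changed few of these genes, and in no line did edgeR or DESeq2 call 1 of them past 2-fold, beside 0.305% of all genes in cntrl, 0.11% in shCdk8-1 and 0.125% in shCdk8-2 cells. In cntrl cells, 2 of the 32 genes rose and none fell, 6.25% beside 5.54% of all genes tested (3.41% upward and 2.14% downward). In shCdk8-1 cells 2 rose and none fell, 6.25% beside 1.48% (0.916% upward and 0.564% downward). Without replicate 1 of cntrl in SnxB 1 gene passed in cntrl cells, and without replicate 2 of shCdk8-1 in DMSO or in SnxB 1 passed in shCdk8-1 cells. An unadjusted p under 0.05 was reached by 4 of the 32 genes in cntrl and 7 in shCdk8-1 cells, or 12.5% and 21.9%, beside 17.6% and 14.5% of all genes. In shCdk8-2 cells edgeR and DESeq2 called 0 genes, and 2.05% of all genes passed in edgeR. An unadjusted p under 0.05 was reached there by 5 of the 32, or 15.6%, beside 12.3% of all genes. With SnxB the log2 fold change of Tgfbr2 was -0.01 in cntrl cells, with a 95% interval from -0.12 to 0.10. The intervals of Acvrl1 and Smad9, at low counts, were wider.

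Id1, the Id gene with the highest level per kb here, was 38.6, 39.7 and 39.0 CPM in cntrl cells in DMSO and 44.6, 55.3 and 46.9 CPM in SnxB. Every SnxB library was above every DMSO library. The log2 fold change was 0.33 (SE 0.0916, adjusted p = 0.0413). In shCdk8-1 cells Id1 was 34.8, 34.5 and 42.3 CPM in DMSO and 41.9, 40.9 and 48.0 CPM in SnxB, with overlap and a log2 fold change of 0.23 (adjusted p = 0.264). In shCdk8-2 cells it was 37.4, 47.7 and 43.6 CPM in DMSO and 51.6, 50.7 and 53.1 CPM in SnxB, without overlap and with a log2 fold change of 0.27 (adjusted p = 0.154). The call in cntrl cells was lost without replicate 1, 2 or 3 in DMSO (adjusted p = 0.121, 0.101 and 0.109) and without replicate 2 or 3 in SnxB (adjusted p = 0.234 and 0.0762). It was also lost with library totals as the scale (adjusted p = 0.0704).

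Ltbp3, a binding protein of latent TGF-β, rose in cntrl cells from 69.6, 67.4 and 63.1 CPM to 78.1, 74.9 and 82.3 CPM, a log2 fold change of 0.23 (SE 0.0608, adjusted p = 0.0258). In shCdk8-1 cells it rose from 71.4, 66.3 and 72.8 CPM to 89.3, 76.1 and 84.7 CPM, a log2 fold change of 0.25 (SE 0.0604, adjusted p = 0.0433). The groups did not overlap in either line. In shCdk8-2 cells it was 77.1, 88.6 and 83.0 CPM in DMSO and 93.1, 91.0 and 88.75 CPM in SnxB, a log2 fold change of 0.14 (adjusted p = 0.344). The call in cntrl cells was lost without replicate 2 or 3 in DMSO (adjusted p = 0.0613 and 0.125) and without replicate 1 or 3 in SnxB (adjusted p = 0.0538 and 0.149). In shCdk8-1 cells it was lost without replicate 1, 2 or 3 in DMSO (adjusted p = 0.104, 0.189 and 0.0659) and without replicate 1 or 3 in SnxB (adjusted p = 0.0921 and 0.154). Adding the replicate block gave an adjusted p of 0.0573 in shCdk8-1 cells.

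Tgfb2 rose with SnxB in shCdk8-1 cells, from 9.26, 10.6 and 10.6 CPM to 12.8, 14.9 and 13.3 CPM, with no overlap. Its log2 fold change there was 0.43 (SE 0.0846, adjusted p = 0.00933). In cntrl cells Tgfb2 was 15.9, 14.4 and 13.3 CPM in DMSO and 13.8, 12.7 and 12.8 CPM in SnxB, a log2 fold change of -0.15 (adjusted p = 0.361). In shCdk8-2 cells it was 13.8, 14.2 and 13.6 CPM in DMSO and 16.6, 16.7 and 15.2 CPM in SnxB, a log2 fold change of 0.22 (adjusted p = 0.208). Without replicate 1 of shCdk8-1 in DMSO or replicate 2 of shCdk8-1 in SnxB, the adjusted p in shCdk8-1 cells was 0.0828 and 0.0669. Tests of whether the SnxB response differed between an shCdk8 line and cntrl called 1 of the 32 genes, Tgfb2, in shCdk8-1 cells, beside 0.305% of all genes. For shCdk8-2 edgeR and DESeq2 called 0, and 0.0548% of all genes passed in edgeR. An unadjusted p under 0.05 was reached by 1 gene, or 3.12%, beside 5.86% of all genes.

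**Figure D5:**
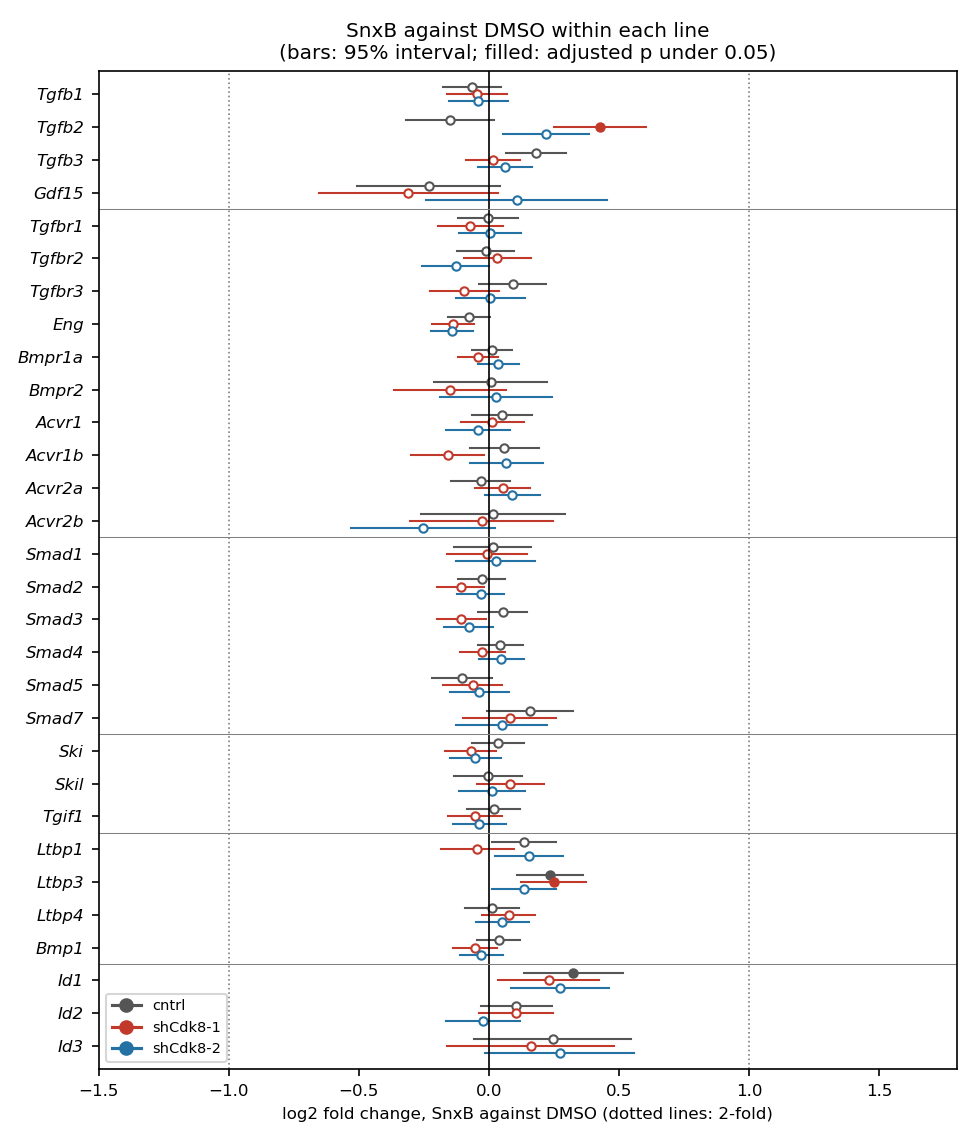
Log2 fold change with SnxB against DMSO in cntrl (grey), shCdk8-1 (red) and shCdk8-2 (blue) cells for 30 of the 32 tested genes, without Acvrl1 and Smad9, whose counts were low. Points are estimates with 95% intervals, filled where the adjusted p is under 0.05. Filled points are Id1 and Ltbp3 in cntrl cells and Tgfb2 and Ltbp3 in shCdk8-1 cells, and all points lie within 2-fold.

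A list of 87 other genes of the pathway, of which 50 were tested, was set beside the 45. It was chosen with earlier results of these data known, so its shares are not an independent test. With shCdk8-1, 26 of the 50 rose and 10 fell, 72% beside 59.6% of all genes, and with shCdk8-2, 25 rose and 9 fell, 68% beside 57.1%. The median log2 fold change was 0.23 and 0.16. A fold above 2 was reached in both lines by 8 genes, all of which rose, and by none that fell, beside 4.28% and 5.25% of all genes.

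Among genes that release or hold latent TGF-β, 4 of 6 tested rose and 1 fell with each shRNA, beside 30.1% and 29% of all genes that rose and 29.5% and 28.1% that fell. Thbs1, thrombospondin 1, which activates latent TGF-β, had at most 2 counts in the cntrl libraries in DMSO and was 5.97 CPM on average with shCdk8-1 and 0.739 CPM with shCdk8-2, at least 36.2-fold and 4.48-fold higher. Lrrc32, which displays latent TGF-β on the cell surface, rose from 9.70 CPM to 36.3 and 30.4 CPM, and Fbn1, fibrillin of the matrix microfibrils, from 3.41 CPM to 14.3 and 9.10 CPM. The gene that fell was Itgav, the integrin αv subunit, by 0.35 and 0.23 on the log2 scale.

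Genes known as targets of TGF-β or BMP did not move one way. Of 15 tested, 8 rose and 5 fell with shCdk8-1, and 8 rose and 2 fell with shCdk8-2, beside those same shares of all genes. Tgfbi, a secreted matrix protein named for its induction by TGF-β, rose from 17.6 to 21.6 CPM in cntrl libraries to 195 to 206 CPM with shCdk8-1 and 184 to 196 CPM with shCdk8-2, log2 fold changes of 3.30 and 3.22. Col1a1, a collagen chain, rose by 4.43 and 3.69 on the log2 scale from 0.780 CPM on average, and Ccn2, a matricellular protein, by 1.02 and 1.00. Col1a2, the other chain of type I collagen, was at least 3.14-fold and 2.26-fold higher, and Atoh8, a transcription factor induced by BMP, at least 2.91-fold and 3.08-fold higher. Of the targets that fell, Junb, a transcription factor of the AP-1 family, was chosen for naming after its values were seen and fell by 0.51 and 0.45 on the log2 scale. Of 4 fibroblast markers listed, Thy1 was at or near 0 throughout, and their summed level, nearly all from Pdgfra, was 285 to 288 CPM in cntrl libraries, 223 to 246 CPM with shCdk8-1 and 249 to 264 CPM with shCdk8-2. Dcn rose with shCdk8-1, from 0.540 to 1.82 CPM. Their part in the collagen values was not tested.

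Acta2, smooth muscle actin, also chosen after its values were seen, was the 1 gene of the 50 that passed in opposite directions with the shRNAs, with a log2 fold change of -0.59 with shCdk8-1 and of 0.55 with shCdk8-2. It rose with SnxB in every line, from 142 to 419 CPM on average in cntrl cells, from 94.6 to 225 CPM in shCdk8-1 cells and from 209 to 421 CPM in shCdk8-2 cells, log2 fold changes of 1.56, 1.25 and 1.01. Of the 50 genes, 8 rose and 3 fell with SnxB in cntrl cells. In shCdk8-1 cells 5 rose and 1 fell, and in shCdk8-2 cells 4 rose and 1 fell. These are 22%, 12% and 10%, beside 5.54%, 1.48% and 2.05% of all genes. The list, Acta2 included, was chosen with earlier results of these data known, so these shares are not an independent test.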

How the data were processed

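The authors trimmed 50 bp single-end reads with Trimmomatic, mapped them with STAR to GRCm38 (GENCODE M13) and counted them per gene over all annotated exons, by strand, with featureCounts 1.5.1. The deposited values are raw counts per gene, and symbols come from the gene annotation of the same build. The 45 genes, the other lists and the rules for naming genes were chosen with earlier results of these data known. All 18 libraries were fitted together in edgeR 4.0.16 (R 4.3.3) over 6 groups, with filterByExpr (minimum count 10, minimum total 15), TMM scaling, glmQLFit and glmQLFTest, and Benjamini-Hochberg adjustment over 12772 genes tested. Standard errors come from the F statistic. CPM are counts over TMM-scaled library sizes. Genes with at most 3 counts in every library of a group are given as bounds against 3 counts per library. Among the 45, values in every library are given for genes past 2-fold with both shRNAs, past the test with SnxB or opposite between shRNAs, and other genes are given by ranges, means or folds. Alternatives were DESeq2 1.42.0, its size factors or library totals in edgeR, other filters, only the groups compared, the replicate number as a block, each library left out, and, added after seeing the data, 12 libraries. The code was tested on simulated counts. Depth per library sets a floor of 0.131 to 0.185 CPM, which covers counting error only. Figures were drawn with matplotlib 3.10.9.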

Additional observations from a re-analysis of the deposited data

Results flagged for a closer look

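The SnxB response of Tgfb2 differed between shCdk8-1 and cntrl cells by 0.58 on the log2 scale in the interaction test (95% interval from 0.33 to 0.82, adjusted p = 0.0359 in edgeR). Tgfb2 was higher in SnxB than in DMSO in all shCdk8-1 libraries, with a log2 fold change of 0.43, and had a log2 fold change of -0.15 in cntrl cells. The call was lost in 10 of 12 fits that left out 1 library, all but those without replicate 3 of cntrl in DMSO or replicate 1 of shCdk8-1 in SnxB, with log2 differences from 0.51 to 0.64. The adjusted p was 0.126 and 0.105 without replicate 1 and 2 of cntrl in DMSO, and 0.0571, 0.0903 and 0.0892 without replicate 1, 2 and 3 of cntrl in SnxB. It was 0.13, 0.0658 and 0.0597 without replicate 1, 2 and 3 of shCdk8-1 in DMSO, and 0.101 and 0.0736 without replicate 2 and 3 of shCdk8-1 in SnxB. With only the groups compared it was 0.12. For shCdk8-2 the log2 difference from cntrl was 0.37 (adjusted p = 0.469).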

How the results depend on the processing

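Of 54 gene results that passed in DMSO, with SnxB, between the shCdk8 lines or in an interaction, 45 kept their direction and their side of the threshold under every alternative run, 9 lost the call in at least 1 fit and 0 reversed. With each library left out, the number of genes that passed with SnxB was 0 to 1 in cntrl cells and 0 to 1 in shCdk8-1 cells (2 each with all libraries), and 0 to 1 for the interaction with shCdk8-1. The number past 2-fold was 3 to 6 for shCdk8-1 in DMSO, 3 to 5 for shCdk8-1 in SnxB (3 without replicate 2 of shCdk8-1 in SnxB) and 0 to 1 between the shCdk8 lines. With SnxB in cntrl cells, library totals gave 0 genes and 12 libraries gave 1. With SnxB in shCdk8-1 cells, DESeq2 size factors gave 1, the replicate block 1 and only the groups compared 0. With SnxB in shCdk8-2 cells, library totals, no filter and only the groups compared gave 1 each. With only the groups compared, the interaction with shCdk8-1 gave 0 and the 2-fold count between the shCdk8 lines 0. The cause was not tested. Libraries of the same label number did not deviate together: their correlation across genes was -0.16 to 0.25, over 0.1 in 2 of 24 pairs. A library correlated best with its own label number in 22 of 90 cases. Headers number the shCdk8-2 libraries labelled 1, 2 and 3 as 2, 3 and 3, and the labels were used here. The check therefore cannot show whether libraries of the same header number deviate together. Pairing by label rests on a number alone, and the replicate block by label moved no other count by over 1.5 times. At 3 libraries per group and this depth, genes under the floor could not be compared.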
